A study of Mus musculus with 34 samples.

Results

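The actin contractile and SRF-regulated genes examined here are 40 named mouse genes. They encode actins, actin-binding and cross-linking proteins, non-muscle myosin II and its regulators, adhesion proteins, LIM proteins and the transcription factor SRF itself. They were chosen by gene symbol, with the probe of highest mean signal standing for each gene. Of the 40, 37 had a probe and Actg1, Cnn3 and Tgfb1i1 had none, among 19057 genes with a probe in all. The rule itself used no measured change, but the members were chosen with earlier results of these data known.

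Levels were read on 34 Illumina bead arrays of mouse neural stem cells. C17.2 is an immortalised mouse neural stem line, and the primary neural stem cells (NSC) came from the telencephalon of E13.5 mouse embryos. All cells of both kinds had received a pBabe retroviral vector that was empty (control), or retrovirus for STAT3C, a constitutively active mutant of STAT3, for CEBPB, or for STAT3C and CEBPB together. Each C17.2 group held 4 arrays, and the NSC groups held 5 control, 4 STAT3C, 4 CEBPB and 5 STAT3C+CEBPB arrays. One label of the NSC double group names STAT3 where its others name STAT3C, and it was read as STAT3C. No label states that the arrays of a group came from separate cultures, so the p-values speak only of array-to-array spread, which may be technical.

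SRF is a transcription factor that binds a short DNA element, the CArG box, and is switched on in several cell types when actin monomers are drawn into filaments. Those monomers otherwise hold back its coactivators, the MRTF proteins. Many of its target genes encode the actin machinery itself, which couples their transcription to the state of the cytoskeleton. In the developing brain many such genes are high in vascular smooth muscle and pericytes and also in cells that spread, migrate or take on mesenchymal features, and STAT3 and CEBPB have been studied as drivers of a mesenchymal state in brain tumours.

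Some facts of the series bear on every result. Probes were detected at a rate of 33.8% to 35.9% in C17.2 and 36.3% to 41.7% in NSC. The 4 C17.2 controls lay alone on slide 1, so a C17.2 comparison with control cannot separate the vector from the slide. In NSC, slide 4 carried 3 controls beside 3 STAT3C arrays, slide 5 carried 3 arrays with CEBPB alone beside 3 with both, and slide 6 carried the other 6, so a difference between groups of slides 4 and 5 rests on slide 6. Replicate 4 of each NSC group, all on slide 6, did not detect Xist, the RNA of the inactive X chromosome, while the other 14 NSC arrays did. Of the neural stem markers, NSC controls detected Nes, Sox2, Fabp7, Slc1a3 and Vim on every array and Msi1, Pax6 and Hes5 on none. C17.2 controls detected Nes, Sox2 and Vim on every array and the other 5 of the 8 markers on none. Of 6 fibroblast and meningeal markers, they detected the collagen genes Col1a1, Col1a2 and Col3a1 on every array and Dcn, Lum and Pdgfra on none. NSC controls detected none of these 6 on every array, and Col1a1, Dcn and Lum on no array.

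The promoters of these genes were searched first, since the members carry SRF's name. A window of 250 bases before to 50 after each start was available in RefSeq (GRCm38.p6) for 35 of the 40. The CArG box was written as CC, then 6 letters each A or T, then GG, which reads as the same motif on both strands. It was found in 11 of the 35 (31.4%), against 488 of 27025 genes in all (1.81%). With at most 1 mismatch it was found in 19 (54.3%), against 23.8% of all genes. Because the members were named as SRF-regulated, this is a description of the list and not independent evidence. The stretches below, with the box in capitals and 20 bases on each side, are those of Srf, which has 2 boxes in its own promoter, and of members with an exact box in a regulatory light chain, a calponin, an adhesion protein and both FHL proteins.

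Srf, chr17:46556195-46556264, minus strand: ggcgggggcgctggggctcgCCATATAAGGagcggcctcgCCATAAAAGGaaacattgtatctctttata
Myl9, chr2:156775283-156775332, plus strand: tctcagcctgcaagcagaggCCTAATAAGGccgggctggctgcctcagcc
Cnn2, chr10:79988524-79988573, plus strand: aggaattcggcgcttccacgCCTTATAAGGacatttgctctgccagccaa
Vcl, chr14:20929151-20929200, plus strand: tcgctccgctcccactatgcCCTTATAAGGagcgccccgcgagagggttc
Fhl1, chrX:56779561-56779610, plus strand: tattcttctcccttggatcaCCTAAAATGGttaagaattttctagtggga
Fhl2, chr1:43163963-43164012, minus strand: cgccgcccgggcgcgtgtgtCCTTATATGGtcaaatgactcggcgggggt

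Acta1, Actc1, Actg1, Lima1 and Myl6 also held an exact box. Of the 7 members called in a comparison of vectors over all arrays of a cell type, none held an exact box, Acta2, Tpm1 and Cavin4 held a site that differs from the motif at 1 position, and Actn1, Myh9, Pdlim5 and Pdlim7 held neither. Both such sites of Acta2 and the first of Tpm1 are shown because both genes were higher with both vectors than with CEBPB alone in NSC.

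Acta2, chr19:34255428-34255477, minus strand: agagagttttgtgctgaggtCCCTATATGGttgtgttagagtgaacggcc
Acta2, chr19:34255378-34255427, minus strand: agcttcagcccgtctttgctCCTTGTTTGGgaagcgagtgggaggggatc
Tpm1, chr9:67049405-67049454, minus strand: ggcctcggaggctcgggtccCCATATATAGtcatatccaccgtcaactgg

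Motifs of the transduced factors were searched in the same windows on both strands. TTCNNNGAA, a form of the STAT element, was in 0 of the 35 promoters, against 9.55% of all genes. TTGCNNAA, a form of the C/EBP element, was in 4 (11.4%), namely Actn1, Csrp1, Myl6 and Pdlim1, against 12.2% of all genes. The match of Actn1, the member with the lowest p for both vectors against CEBPB alone in NSC, is shown with the motif in capitals on the opposite strand.

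Actn1, chr12:80260439-80260486, minus strand: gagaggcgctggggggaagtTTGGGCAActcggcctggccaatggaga

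With the empty vector, C17.2 cells held most of this machinery at higher levels than NSC did. Of 33 members tested with all 34 arrays normalised together, 26 passed the test (limma, adjusted p below 0.05), 23 higher in C17.2 and 3 lower, where 48.5% of all 11713 genes tested passed, 24.3% higher and 24.2% lower. An unadjusted p below 0.05 was reached by 27 members, against 55.1% of genes. The median log2 difference of the members was 1.50, against -0.01 over all genes tested. These are log2 levels and log2 differences between cell types. Cell type and slide cannot be told apart in this comparison, and in these bulk samples more cells of a kind and more RNA per cell cannot be told apart either.

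**Figure D1:**
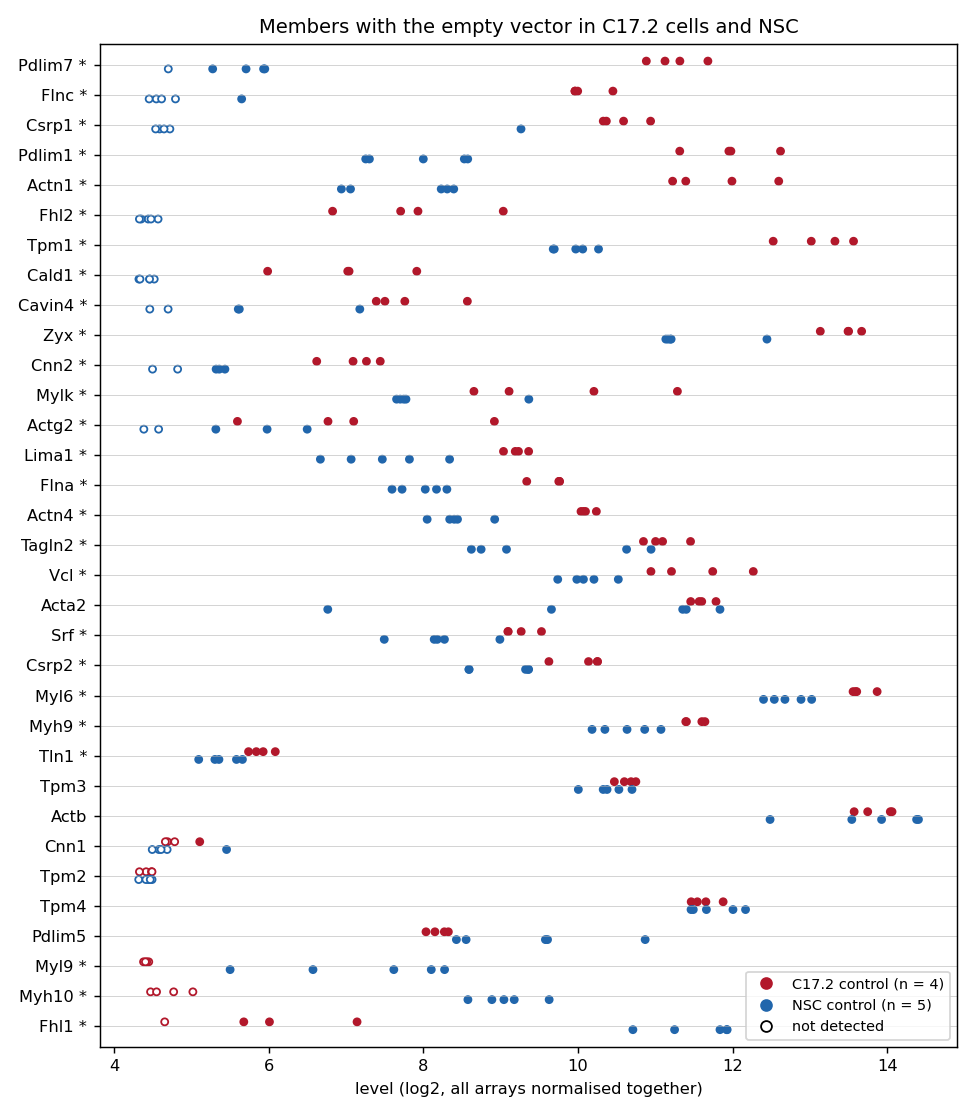
Log2 level of the 33 tested members on each empty-vector array of C17.2 (4 red points) and NSC (5 blue points), ordered by the difference, with open points where the probe was not detected and a star for members that passed the test. Pdlim7, Flnc and Csrp1 stand farthest to the right in C17.2, and Fhl1, Myh10 and Myl9 are the called members with the opposite order.

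The widest gaps were in LIM and cross-linking proteins. Pdlim7, a PDZ and LIM protein of stress fibres, stood at 11.12, 10.88, 11.68 and 11.32 on the C17.2 controls and at 5.70, 5.95, 5.93, 5.27 and 4.70 on the NSC controls. The groups were far apart, and the last NSC array did not detect it (log2 difference 5.74, SE 0.22, adjusted p = 9.37e-20). Flnc, the muscle form of filamin, stood at 9.96 to 10.45 in C17.2 and was detected on 1 of 5 NSC arrays (5.28, SE 0.26, adjusted p = 8.70e-17). Csrp1, a LIM protein of smooth muscle, stood at 10.33 to 10.94 in C17.2. In NSC it was detected on replicate 4 alone, at 9.26, against 4.53 to 4.72 on the other 4 arrays (5.01, SE 1.0, adjusted p = 0.000131). Without that array no NSC control detected Csrp1. Pdlim1 was higher in C17.2 by 4.04 (SE 0.38, adjusted p = 3.78e-10) and Actn1, which encodes the cross-linker alpha-actinin, by 4.02 (SE 0.40, adjusted p = 1.08e-09). Fhl2, an FHL protein that binds SRF, was detected on no NSC control and was at least 7.73-fold higher in C17.2 (adjusted p = 2.51e-12). Cald1, caldesmon, was likewise detected on no NSC control with the probe used here and was at least 4.19-fold higher (adjusted p = 8.84e-11).

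Members lower in C17.2 were fewer and just as far apart. Fhl1, the relative of Fhl2, stood at 7.14, 4.65, 6.01 and 5.68 in C17.2 and at 11.92, 11.93, 11.84, 10.71 and 11.25 in NSC, with no overlap (-5.66, SE 0.87, adjusted p = 3.05e-06). The 2 FHL genes that hold an exact CArG box in their promoters thus lay in opposite order in the 2 cell types. Myh10, the heavy chain of non-muscle myosin IIB, was detected on no C17.2 control and on all NSC controls at 8.57 to 9.63, at least 15.1-fold higher there (adjusted p = 7.17e-10). Its paralog Myh9, of myosin IIA, had the reverse order, higher in C17.2 by 0.89 (SE 0.18, adjusted p = 0.000206). Myl9, a regulatory light chain of myosin II, was detected on no C17.2 array of any group and on all 18 NSC arrays, and was at least 4.20-fold lower in C17.2 controls (adjusted p = 1.23e-05). Levels of different genes are not compared here, since each probe has its own brightness.

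Adhesion proteins and SRF were higher in C17.2 by smaller steps. Zyx, zyxin, was higher by 2.02 (SE 0.24), Vcl, vinculin, by 1.44 (SE 0.25) and Tln1, talin, by 0.50 (SE 0.20, adjusted p = 0.0386). Srf stood at 9.10, 9.09, 9.53 and 9.26 in C17.2 and at 8.14, 8.18, 7.49, 8.99 and 8.27 in NSC. Every C17.2 array lay above every NSC array, the nearest being NSC replicate 4 (1.03, SE 0.25, adjusted p = 0.00107). The tested members that did not pass were Acta2, Actb, Cnn1, Tpm2, Tpm3, Tpm4 and Pdlim5. Acta2, smooth muscle actin, stood at 11.46 to 11.78 in C17.2 and at 11.40, 11.84, 11.35, 6.76 and 9.66 in NSC, so that 3 NSC arrays were level with C17.2 and the 2 arrays of slide 6 were far below (1.40, SE 1.0, adjusted p = 0.25). Actb, cytoplasmic beta-actin, differed by 0.11 (SE 0.32, adjusted p = 0.801).

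Several muscle-type members were barely seen in either cell type. Acta1, skeletal actin, was detected on 3 of 16 C17.2 arrays and 0 of 18 NSC arrays, Actc1, cardiac actin, on 0 and 3, and Lmod1, leiomodin, on 1 and 0. Tagln, transgelin, was detected on 0 C17.2 arrays and on 1 NSC array by the better of its 2 probes. Cnn1, smooth muscle calponin, was detected on 1 and 3. These 5 were tested in neither cell type alone. Myl9 was not tested in C17.2, and Tpm2, Flnc and Fhl2 were not tested in NSC, leaving 31 members in C17.2, 29 in NSC and 28 in both.

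Genes around the pathway were called in both directions. Of 23 regulators of actin monomers and filaments, 21 were tested, 8 were higher and 3 lower in C17.2, a share near the 48.5% of all genes, with a median of 0.25. Gsn, gelsolin, which severs filaments, was higher by 3.33 (SE 0.24, adjusted p = 7.86e-13), and Tmsb4x, thymosin beta, which holds actin monomers, was lower (-2.51, SE 0.25, adjusted p = 1.12e-09). Of 20 further SRF and MRTF target genes 16 were tested, 7 were higher, among them Ccn1 and Thbs1, and 4 lower, namely Egr1, Egr2, Egr3 and Fos. Of the 6 SRF cofactor genes 5 were tested, and Elk4 alone passed (-0.73, SE 0.11, adjusted p = 2.85e-06). Each of these counts stands beside the same 48.5% of all genes, and the lists were counted with no test of the list.

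The next question is what each vector changed. The map of changes gives all members against the empty vector. In each cell type the 3 comparisons share the same controls, so their columns are not independent of each other.

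**Figure D2:**
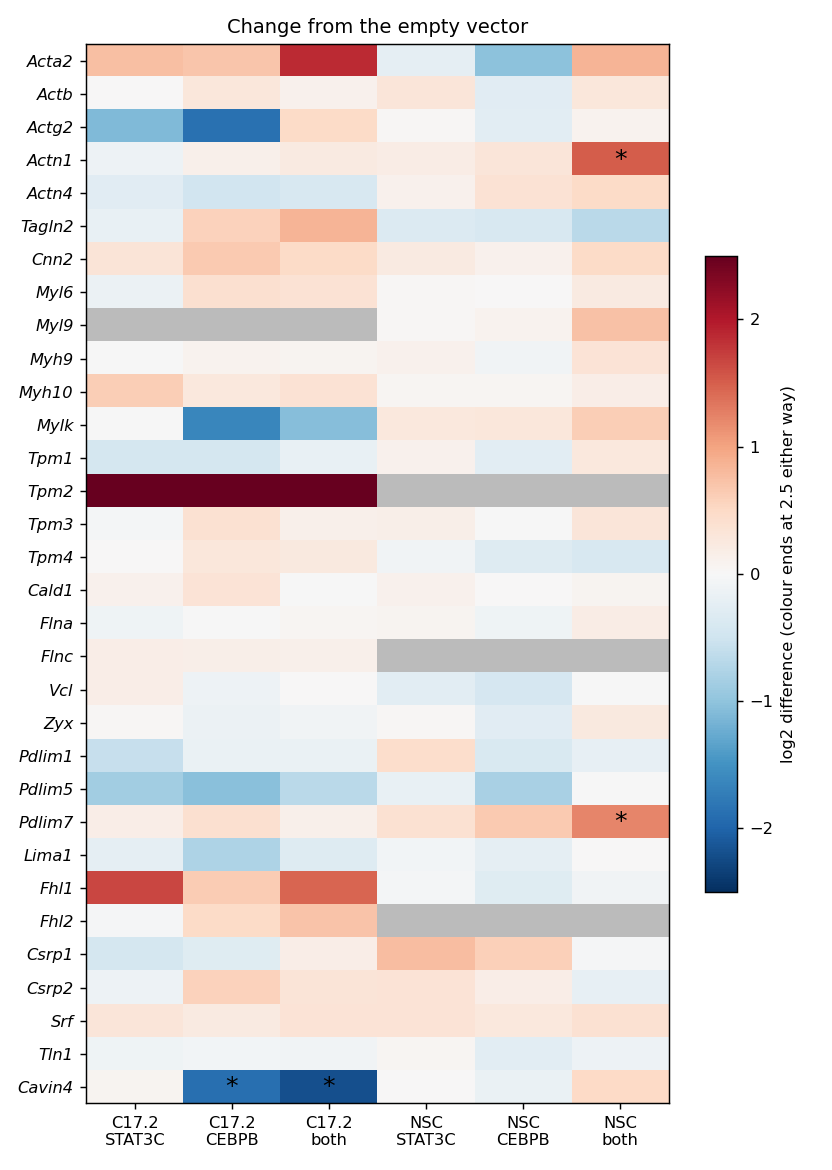
Log2 difference from the empty vector for each member tested, with STAT3C, CEBPB or both, in C17.2 and in NSC. Red is higher and blue lower with the vector, the colour ends at 2.5 either way, grey marks members not tested, and stars mark adjusted p below 0.05. Stars fall on Cavin4 in C17.2 and on Actn1 and Pdlim7 in NSC.

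In C17.2 cells with STAT3C, 0 of 31 members passed (limma), where 0.0103% of 9699 genes tested did, and 2 members had an unadjusted p below 0.05, where 12.8% of genes did. The median change of the members was -0.01, as it was over all genes tested. The largest rise was that of Tpm2, which encodes beta-tropomyosin, and the largest fall that of Actg2, enteric smooth muscle actin. Tpm2 was detected on none of the 4 controls, at 4.42, 4.34, 4.49 and 4.49. On the STAT3C arrays it stood at 4.93, 8.92, 10.36 and 9.85, so that replicate 1 was near the controls and undetected and the other 3 were far above. The mean was at least 11.1-fold above control (adjusted p = 0.301). Because no control detected Tpm2, it passed the detection filter only through transduced arrays. That filter favours a rise of Tpm2 over control, here and in the other comparisons with control. Actg2 went from 6.59, 5.43, 6.94 and 8.86 to 7.66, 5.60, 4.48 and 5.63, and the groups overlapped (-1.11, SE 0.85, adjusted p = 0.606).

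With CEBPB in C17.2, 1 of 31 members passed, against 1.62% of all genes tested, and it was lower, as were 0.67% of genes. An unadjusted p below 0.05 was reached by 10 members, against 23% of genes. It was Cavin4 on chr4:48663514-48673492 (GRCm38.p6), which encodes a muscle-enriched protein that coats caveolae. Cavin4 stood at 7.25, 7.37, 8.49 and 7.64 on the controls and at 7.64, 7.87, 7.70 and 7.82 with STAT3C. It stood at 5.67, 5.58, 5.56 and 6.37 with CEBPB and at 4.88, 6.18, 5.20 and 5.69 with both. All 8 arrays carrying CEBPB lay below all 8 arrays without it, and 1 of them, STAT3C+CEBPB replicate 1, did not detect the probe. The difference from control was -1.89 with CEBPB (SE 0.29, adjusted p = 0.0116) and -2.20 with both (SE 0.29, adjusted p = 0.00294), a level 0.269-fold and 0.217-fold of control. The call with CEBPB was lost in 2 of 16 fits that each left out 1 array, with adjusted p up to 0.0573 without CEBPB replicate 1, and the call with both in none.

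Cavin4 was also the 1 member that passed when the CEBPB groups were set against STAT3C alone. It fell by 1.96 with CEBPB against STAT3C (SE 0.29, adjusted p = 0.0152), where 0.227% of genes passed and 0.144% passed downward. The difference with both against STAT3C was -2.27 (SE 0.29, adjusted p = 0.00544), where 0.186% passed and 0.113% passed downward. At an unadjusted p below 0.05 the 2 comparisons held 7 and 3 of 31 members, where 9.19% and 9.83% of genes passed. The first of these calls was lost in 3 fits that left out 1 array, CEBPB replicate 1 and STAT3C replicate 2 among them, with adjusted p up to 0.0961. Within slide 2, which held 4 STAT3C arrays and 2 CEBPB arrays, the difference was -2.13. When the slide entered as a fixed term among the 12 transduced arrays, neither passed (adjusted p = 0.0642 and 0.307) at differences of -2.13 and -2.61. In NSC the same probe showed no such order, with 5.74, 5.75, 7.30, 4.71 and 4.45 on controls, 6.23, 6.37, 6.42 and 4.70 with CEBPB and 6.80, 6.88, 7.92, 4.89 and 4.92 with both. The NSC change with both was 0.50 (SE 0.37, adjusted p = 0.553). The difference between the cell types in the change with both vectors was -2.86 (SE 0.73, adjusted p = 0.0425), the 1 member of 33 to pass, against 1.33% of 11713 genes, with 0.768% lower. This joint fit held no slide term. At an unadjusted p below 0.05 there were 5 members, against 15.1% of genes. That call was lost in 16 of 34 fits that each left out 1 array, with adjusted p up to 0.098, and when no background was fitted (0.0615) or no detection filter was set (0.0679).

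**Figure D3:**
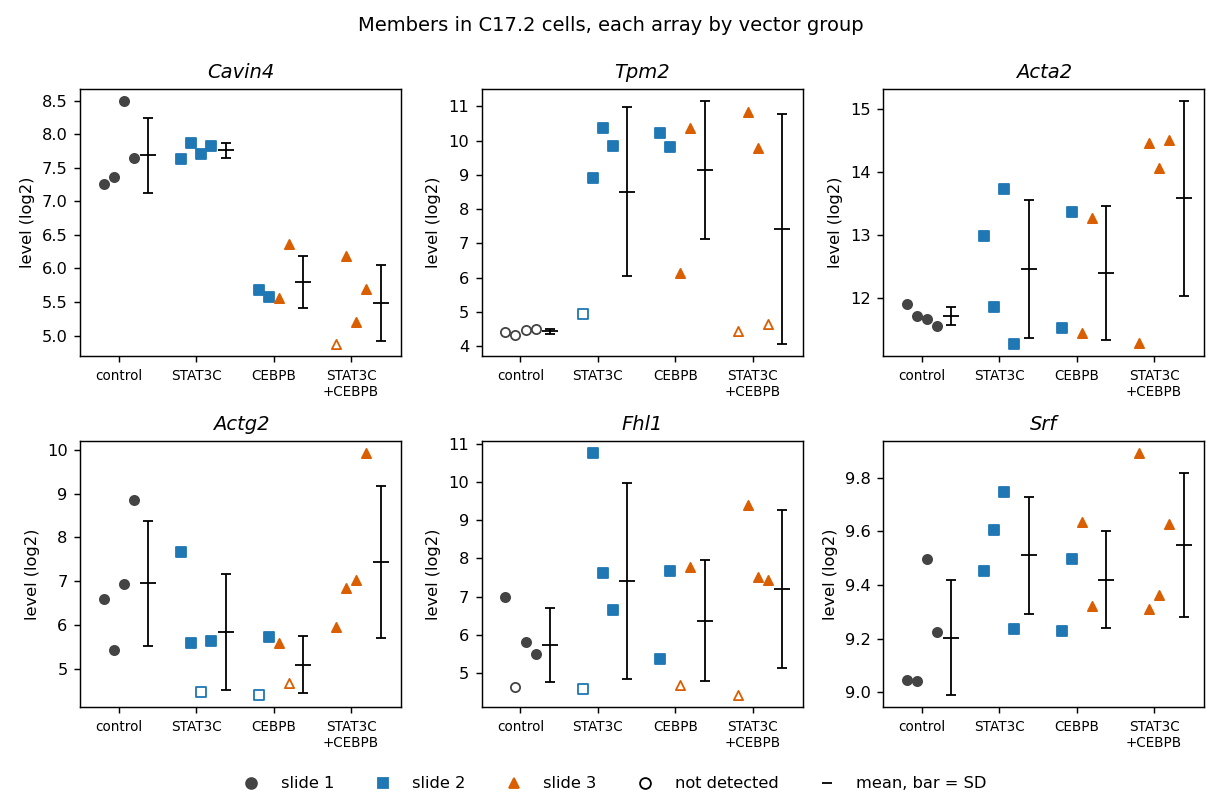
Log2 level of 6 members on each C17.2 array by vector group, with marker and colour giving the slide, open points where the probe was not detected, and bars for the mean and SD. Cavin4 falls into a higher set without CEBPB and a lower set with it, while Tpm2, Acta2, Actg2 and Fhl1 are spread widely inside the transduced groups and Srf moves by less than 1 on the log2 scale.

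With both vectors in C17.2, 1 of 31 members passed, Cavin4, where 0.577% of all genes did and 0.258% fell. An unadjusted p below 0.05 was reached by 4 members, against 17.8% of genes. The median change was 0.13 with both and 0.15 with CEBPB, against 0.01 over all genes tested in each. Setting both against CEBPB alone, 0 members passed (limma), where 0% of genes did, and 1 had an unadjusted p below 0.05, against 4% of genes. For non-additivity, the change with both minus the sum of the single changes, 0 members passed, where 0% of genes did, and 4 had an unadjusted p below 0.05, against 10.8%. Actg2, down by 1.86 with CEBPB at adjusted p = 0.206 and up by 0.48 with both, had the largest fall of the non-called members with CEBPB. Mylk, myosin light chain kinase, which starts contraction by phosphorylating the light chain, showed -1.62 with CEBPB (SE 0.60, adjusted p = 0.13) and -1.07 with both (SE 0.60, adjusted p = 0.36).

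The members with the widest spread in C17.2 were Tpm2, Fhl1, Acta2 and Actg2. With CEBPB, Tpm2 stood at 10.22, 9.82, 6.14 and 10.38, above every control (at least 17.1-fold, adjusted p = 0.0877). With both vectors it stood at 4.45, 10.85, 9.79 and 4.64, and replicates 1 and 4 were undetected (at least 5.24-fold, adjusted p = 0.297). A further Tpm2 probe, detected on 8 of the 16 arrays, was also lowest on controls, with means of 4.40 in control, 6.26 with STAT3C, 5.63 with CEBPB and 5.39 with both. It put STAT3C above CEBPB, where the probe used put CEBPB above STAT3C. Acta2 stood at 11.91, 11.72, 11.68 and 11.57 on controls and at 11.29, 14.46, 14.07 and 14.51 with both. With both vectors 3 arrays were far above the controls and replicate 1 was below them (1.87, SE 0.69, adjusted p = 0.19), and without that replicate the difference was 2.63 with adjusted p = 0.0218. With STAT3C, Acta2 stood at 12.99, 11.87, 13.73 and 11.28, and with CEBPB at 11.52, 13.37, 11.46 and 13.28, each overlapping the controls. All 4 Acta2 probes detected on every C17.2 array gave a rise of 1.78 to 2.08 with both vectors.

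The spread of Tpm2 moved in part with a split of the arrays that the vectors do not define. The first principal component of C17.2, computed without the members, held 50.2% of the variance, and its scores ran from -45.3 to -21.1 on the controls. The 4 transduced arrays with scores of -20.1 or less were STAT3C replicate 1, CEBPB replicate 3 and STAT3C+CEBPB replicates 1 and 4. STAT3C replicate 2 came next at -12.5, nearer to those 4 than to the array after it, at 16.5. On those 4, Tpm2 was undetected on 3 and at 6.14 on the other, while on the other 8 it was at 8.92 to 10.85. The 8.92 was that of STAT3C replicate 2, so the match depends on where the split is cut. Acta2 and Actg2 did not follow the same split, since both were high on STAT3C replicate 1 and STAT3C+CEBPB replicate 4. Summed signal of the fibroblast and meningeal markers was 323.2 to 1036 on those 4 arrays and 925.8 to 3468 on the other 8, and 391.4 to 820.3 on controls, with Lum detected on none. Summed signal of the neuron markers was 306.6 to 471.9 on the 4, 57.5 to 346.7 on the other 8 and 164.0 to 799.5 on controls. The 346.7 was again that of STAT3C replicate 2. Summed signal of the smooth muscle and pericyte markers was 291.1 to 479.7 on controls and 368.8 to 843.9 with both vectors. Smtn and Pdgfrb were detected on every array of these 2 groups, and Myh11, Rgs5 and Abcc9 on no array of either. The part of these markers in the results was not tested.

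Srf itself and Actb moved little in C17.2. Srf went from 9.05, 9.04, 9.50 and 9.23 on controls to 9.45, 9.61, 9.75 and 9.24 with STAT3C. It stood at 9.23, 9.50, 9.64 and 9.32 with CEBPB and at 9.89, 9.31, 9.36 and 9.63 with both. The groups overlapped in each case, and the differences were 0.31 (adjusted p = 0.452), 0.22 (adjusted p = 0.452) and 0.35 (adjusted p = 0.29), each with SE 0.17. Actb stood at 13.72 to 14.24 on controls and 13.69 to 14.56 on the 12 transduced arrays, with differences of 0.01, 0.27 and 0.10 (adjusted p = 0.985, 0.454 and 0.832). Its 5 probes disagreed: the mean of all probes turned the change with both vectors to -0.26.

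In the lists around the pathway few genes passed in C17.2. Of 16 further SRF and MRTF targets tested, 2 rose with CEBPB and 2 with both, where 1.62% and 0.577% of all genes passed. They were Ccn2, a secreted matrix protein, with 2.97 (SE 0.50, adjusted p = 0.013) and 3.79 (SE 0.50, adjusted p = 0.00283), and Tuft1, tuftelin, with 1.49 (SE 0.29, adjusted p = 0.0243) and 1.51 (SE 0.29, adjusted p = 0.0335). Cavin4 thus fell in arrays in which Ccn2 rose. With both against STAT3C alone, Ccn2 was higher (2.86, SE 0.50, adjusted p = 0.0268) and Egr3 lower (-2.13, SE 0.34, adjusted p = 0.0162), where 0.186% of genes passed. Egr3 was also lower in the difference between cell types with both vectors (-1.63, SE 0.42, adjusted p = 0.0423), where 1.33% of genes passed. No SRF cofactor, actin regulator or TGF-beta gene passed against control.

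In NSC the single vectors changed no member by the test. With STAT3C 0 of 29 members passed (limma), where 0% of 10858 genes did, and 2 had an unadjusted p below 0.05, against 5.14% of genes. With CEBPB 0 passed, where 0.0276% of genes did, and 2 had an unadjusted p below 0.05, against 8.51%. The median change of the members was 0.06 with STAT3C and -0.10 with CEBPB, against 0.02 over all genes in each. The largest positive estimate with STAT3C was that of Csrp1 (0.76, SE 0.87, adjusted p = 0.911), which was 0.058 without control replicate 5 and 1.22 without control replicate 4. Csrp1 was detected in NSC on replicate 4 of each group alone, at 9.30 in control and 9.21 with STAT3C. The estimate therefore does not show a rise. The largest fall was that of Tagln2, a transgelin (-0.34, SE 0.41, adjusted p = 0.915), which was -0.022 without control replicate 3. With CEBPB the largest rise was that of Pdlim7 (0.65, SE 0.25, adjusted p = 0.442), which was 0.33 without control replicate 5. The largest fall was that of Acta2 (-1.02, SE 0.73, adjusted p = 0.777), which was -0.0072 without control replicate 5 and -1.74 without control replicate 4.

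With both vectors in NSC 2 of 29 members rose and none fell, where 2.84% of all genes passed and 1.51% passed upward. An unadjusted p below 0.05 was reached by 6, against 17.3% of genes. The called members were Actn1, on chr12:80167542-80260420, and Pdlim7, on chr13:55497487-55513473, which both encode proteins of stress fibres and their attachment sites. Actn1 stood at 8.38, 8.46, 8.30, 7.07 and 7.18 on controls and at 8.72, 8.74, 8.93 and 6.81 with STAT3C. It stood at 7.79, 7.79, 7.54 and 7.97 with CEBPB and at 9.48, 9.54, 9.17, 8.21 and 8.0 with both. Within slide 6 the 2 arrays with both vectors lay above the 2 controls, and the 3 of slide 5 lay above every other NSC array (1.51, SE 0.29, adjusted p = 0.00917). An alternative chosen after seeing the data gave the 4 arrays that lack Xist a block of their own (limma, SE 0.28, adjusted p = 0.00347). That block leaves the differences between both vectors and control as they were, 1.51 for Actn1, and changes only their SE. It therefore gives no second estimate of them.

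Pdlim7 stood at 5.85, 6.10, 6.08, 5.37 and 4.71 on NSC controls, the last not detected, and at 6.16, 6.16, 6.13 and 5.97 with STAT3C. It stood at 5.56, 5.87, 5.28 and 6.06 with CEBPB and at 6.02, 6.27, 6.51, 6.42 and 6.27 with both. Only 1 array with both vectors lay below the highest control (1.22, SE 0.23, adjusted p = 0.00823). Its levels in NSC were low, close to the undetected value of 4.71. With the block for the 4 arrays that lack Xist, 4 members rose with both vectors against control, where 8.28% of genes passed, Actn1, Pdlim7 (1.22, SE 0.18, adjusted p = 0.000716), Myl9 (0.74, SE 0.18, adjusted p = 0.0203) and Mylk (0.62, SE 0.18, adjusted p = 0.0435). Leaving those 4 arrays out gives no check of this comparison, since 1 control and 1 array with both vectors then remain on slide 6. Without a slide term neither gene passed, at adjusted p = 0.264 for Actn1 (difference 1.0) and 0.133 for Pdlim7 (difference 0.68). The largest fall with both was that of Tagln2 (-0.68, SE 0.53, adjusted p = 0.578), which was 0.083 without control replicate 5 and -1.29 without control replicate 4.

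**Figure D4:**
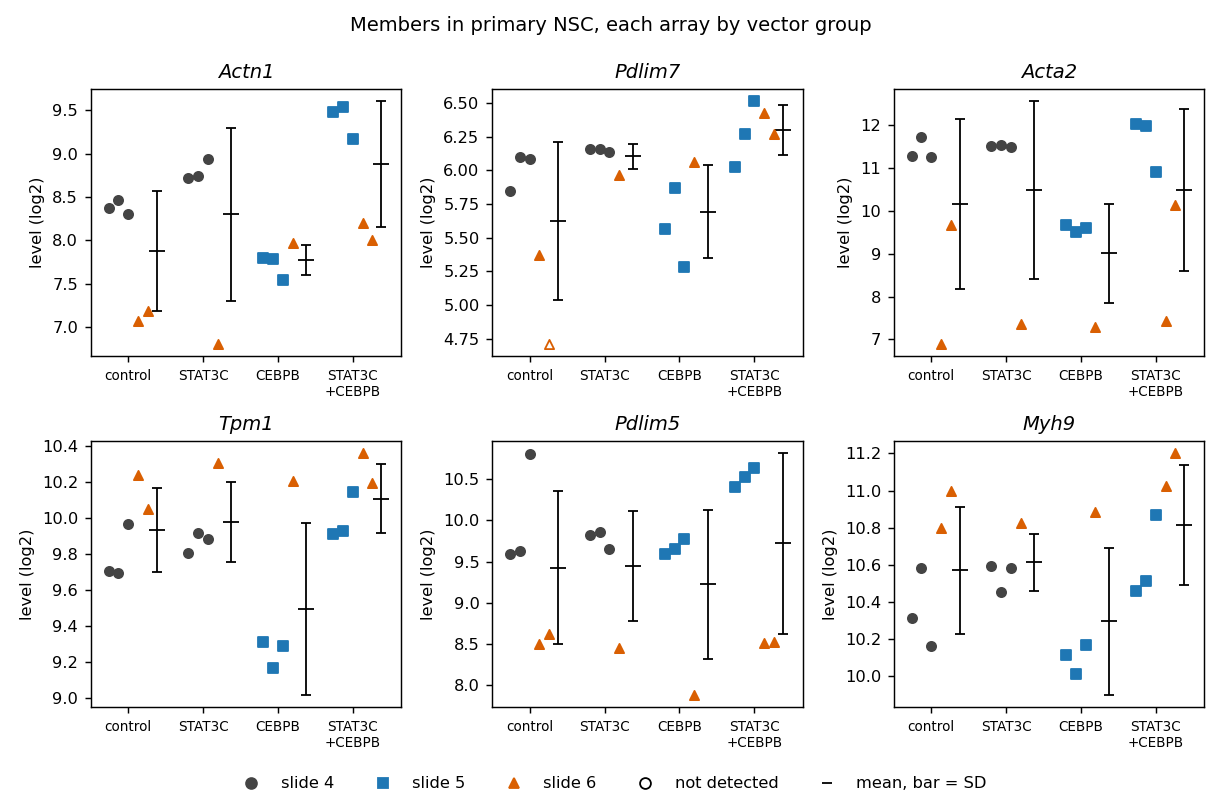
Log2 level of 6 members on each NSC array by vector group, with marker and colour giving the slide, open points where the probe was not detected, and bars for the mean and SD. On slide 5 the 3 arrays with both vectors lie above the 3 CEBPB arrays for each of the 6 genes, and the slide 6 arrays lie lower than the rest of their group for Pdlim5 and, in every group, for Acta2 at replicate 4.

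The widest movement of the members in NSC was between both vectors and CEBPB alone. Here 5 of 29 members rose and none fell, where 6.47% of all 10858 genes passed and 3.22% passed upward. At an unadjusted p below 0.05 there were 13, where 22.2% of genes passed. Changes were positive for 25 of 29, with a median of 0.32 against -0.01 over all genes tested. The 5 were Acta2, Actn1, Myh9, Tpm1 and Pdlim5. This contrast is what STAT3C adds where CEBPB is present, and slide 5 holds 3 arrays of each group, so it does not rest on slide 6 alone.

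Acta2, on chr19:34240336-34255585, stood at 9.67, 9.51, 9.59 and 7.28 with CEBPB and at 12.02, 11.99, 10.90, 7.42 and 10.14 with both. On slide 5 the groups did not overlap, and on slide 6 the arrays with both vectors lay at 7.42 and 10.14 above the CEBPB array at 7.28 (1.88, SE 0.51, adjusted p = 0.039). Of the slide 6 arrays, the 2 that lack Xist were close to each other, at 7.28 and 7.42, and the third detected Xist. The call was lost in 11 of 18 fits that each left out 1 array, with adjusted p up to 0.116. Controls stood at 11.29, 11.72, 11.25, 6.90 and 9.67 and STAT3C arrays at 11.52, 11.55, 11.50 and 7.36, so that on slides 4 and 5 the 3 CEBPB arrays were the lowest of the 12. Against control the change with both was 0.86 (SE 0.66, adjusted p = 0.572), and it was 0.086 without STAT3C+CEBPB replicate 5 and 1.87 without control replicate 5. The 4 probes of Acta2 detected on 16 or more NSC arrays gave differences of group means of 1.29 to 1.48 between both and CEBPB.

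Actn1 rose by 1.21 between CEBPB and both (SE 0.22, adjusted p = 0.00568), by 1.69 within slide 5 and by 0.13 within slide 6. Tpm1, an alpha-tropomyosin that stabilises filaments, on chr9:67022590-67049672, stood at 9.31, 9.17, 9.29 and 10.21 with CEBPB and at 9.91, 9.93, 10.14, 10.36 and 10.19 with both. The slide 5 groups did not overlap, while on slide 6 the levels were alike (0.53, SE 0.12, adjusted p = 0.0168). Its other well-detected probe had a difference of group means of 0.27, against 0.61 for the probe used.

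Myh9, on chr15:77760585-77842175, stood at 10.12, 10.01, 10.17 and 10.88 with CEBPB and at 10.46, 10.52, 10.87, 11.03 and 11.20 with both, with each slide's arrays in the same order (0.43, SE 0.12, adjusted p = 0.0403). Pdlim5, a PDZ and LIM protein that binds alpha-actinin, on chr3:142239585-142395719, stood at 9.59, 9.66, 9.77 and 7.88 with CEBPB and at 10.41, 10.52, 10.64, 8.52 and 8.53 with both. Here too the order held on both slides (0.78, SE 0.19, adjusted p = 0.0213). A further Pdlim5 probe, detected on all 18 arrays, did not share it, with a difference of group means of -0.14 against 0.50 for the probe used. When 1 array was left out, Tpm1 and Pdlim5 lost their calls in 5 of 18 fits each, Myh9 in 10 and Actn1 in 0. With the mean of all probes standing for each gene 3 of the 5 passed, Acta2, Actn1 and Pdlim5.

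**Figure D5:**
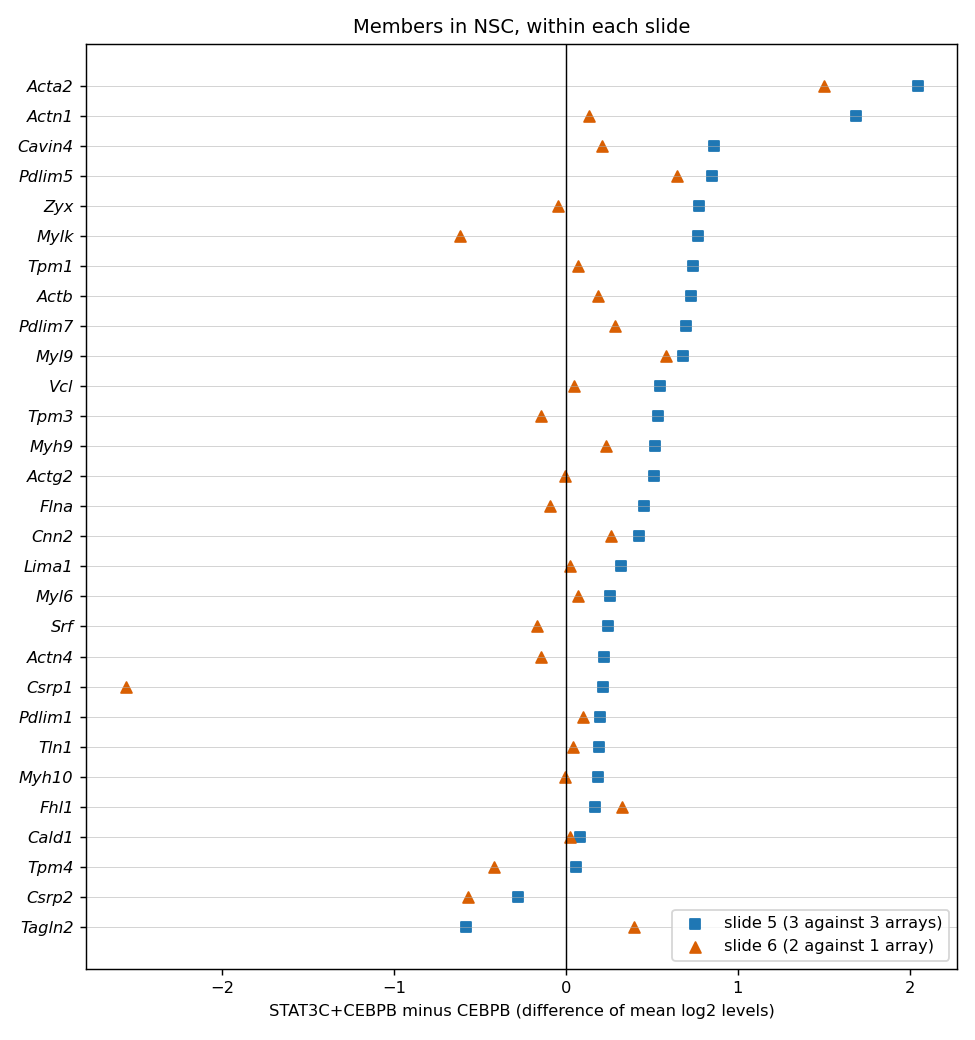
Difference of mean log2 levels between both vectors and CEBPB alone for each of 29 members in NSC, within slide 5 (squares, 3 against 3 arrays) and within slide 6 (triangles, 2 arrays against 1). On slide 5, 27 of 29 differences are above 0, with Csrp2 and Tagln2 below, and on slide 6 the count is 18.

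Within slide 5 alone 27 of 29 members were positive, with a median difference of 0.45 against -0.02 over all genes, of which 47.2% were positive. Within slide 6, with 2 arrays against 1, 18 of 29 were positive, with a median of 0.05 against 0.01. On slide 6 Csrp1 differed by -2.56, because it was detected on replicate 4 of each NSC group, at 8.97 to 9.35, and on none of the other 14 arrays. Without the 4 arrays that lack Xist, which leaves CEBPB on slide 5 only, 12 of 29 members rose and none fell, where 17.7% of all genes passed and 8.35% passed upward. The further 7 were Actb (0.73, adjusted p = 0.00344), Cnn2, a calponin (0.43, adjusted p = 0.016), Myl9 (0.68, adjusted p = 0.0107), Mylk (0.77, adjusted p = 0.000923), Tpm3 (0.53, adjusted p = 0.00908), Flna, filamin (0.45, adjusted p = 0.0445), and Pdlim7 (0.70, adjusted p = 0.00854). With all 18 arrays and a block of their own for those 4, 10 rose and none fell, where 13.6% of genes passed and 6.24% passed upward. They were 10 of those 12, all but Cnn2 and Flna. Without a slide term 0 passed (limma), against 5 with it, with adjusted p from 0.146 to 0.824 for the 5.

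Non-additivity in NSC was called for 0 of 29 members (limma), where 0.0368% of genes passed, and 5 had an unadjusted p below 0.05, against 14.2%. It was positive for 23 of 29, with a median of 0.19 against -0.03 over all genes. Without the 4 arrays that lack Xist it was called for 4 members, all positive, where 6.42% of genes passed. They were Acta2 (1.95, SE 0.34, adjusted p = 0.00567), Actn1 (1.27, SE 0.17, adjusted p = 0.00157), Mylk (0.95, SE 0.17, adjusted p = 0.00693) and Tpm1 (0.66, SE 0.15, adjusted p = 0.0245). Those values rest on 3 arrays against 3 within slide 5 and within slide 4. With all 18 arrays and a block of their own for those 4, 0 members were called (limma), where 1.74% of genes were, and 9 had an unadjusted p below 0.05, against 18.8% of genes.

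Against STAT3C alone, both vectors changed 0 of 29 NSC members (limma), where 0.341% of genes passed, and 5 had an unadjusted p below 0.05, against 11.5%. The nearest was Actn1 (1.32, SE 0.31, adjusted p = 0.0943). With the block for the 4 arrays that lack Xist, Actn1 (1.34, SE 0.31, adjusted p = 0.0337) and Pdlim7 (0.92, SE 0.20, adjusted p = 0.0266) passed, where 2.07% of genes did. CEBPB against STAT3C also gave 0 of 29, where 0.00921% of genes passed, and 2 had an unadjusted p below 0.05, against 5.36%. That contrast was negative for 23 of 29 members, with a median of -0.16 against 0.01 over all genes, and its 1 array against 1 within slide 6 was negative for 17.

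Srf in NSC stood at 8.22, 8.26, 7.60, 9.04 and 8.34 on controls and at 8.31, 8.30, 8.37 and 9.10 with STAT3C. It stood at 8.13, 8.05, 8.11 and 9.17 with CEBPB and at 8.19, 8.30, 8.53, 9.24 and 8.76 with both. The highest array of each group was replicate 4. With replicate 4 left out, each transduced group still overlapped the controls (0.33, 0.26 and 0.38 against control over all arrays, adjusted p = 0.854, 0.843 and 0.387). The CEBPB arrays then lay below every array with STAT3C and every array with both. Between CEBPB and both, Srf differed by 0.12 (SE 0.16, adjusted p = 0.731) in the fit in which 5 other members passed. Without the 4 arrays that lack Xist, Srf differed by 0.25 (SE 0.16, adjusted p = 0.321). With a block for those 4 arrays it differed by 0.21 (SE 0.13, adjusted p = 0.312). Actb stood at 12.35 to 14.25 on controls, 13.59 to 14.28 with STAT3C, 12.98 to 13.80 with CEBPB and 12.99 to 14.59 with both. Its changes against control were 0.31, -0.28 and 0.28 (adjusted p = 0.854, 0.872 and 0.636), and with the mean of all its probes the change with CEBPB was 0.09.

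Some members marked single arrays more than groups. Zyx stood at 12.31 on NSC control replicate 3 and at 12.42 on STAT3C+CEBPB replicate 3, and at 10.98 to 11.64 on the other 16 NSC arrays. Cavin4 had its 2 highest NSC levels on the same arrays, at 7.30 and 7.92, and these lay on different slides. Acta2 was low on the 4 arrays that lack Xist, at 6.90 to 7.42, against 9.51 to 12.02 on the other 14, while Mylk was high on them, at 9.39 to 9.87 against 7.46 to 8.65. Summed signal of the smooth muscle and pericyte markers was 770.5 or more on all 6 arrays of slide 6. On slide 5 it was 191.4 to 221.3 with CEBPB and 205.9 to 220.1 with both. Of these markers, Smtn, Cspg4 and Notch3 were detected on every array of both groups and Myh11, Rgs5 and Pdgfrb on no array of either. Acta2 and the 4 other called members were higher with both vectors on that slide. The part of these markers in that difference was not tested.

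In the lists around the pathway, both vectors against CEBPB alone raised 1 of 3 SRF cofactors tested, Mrtfb, an MRTF coactivator (0.46, SE 0.12, adjusted p = 0.0272). It raised 2 of 21 actin regulators, the filament-disassembly factor Wdr1 (0.41, SE 0.10, adjusted p = 0.0263) and the branching subunit Arpc5 (0.34, SE 0.09, adjusted p = 0.0263). Of 8 TGF-beta genes tested the receptor gene Tgfbr2 rose (0.80, SE 0.14, adjusted p = 0.00344), and of 14 further SRF and MRTF targets Ccn2 rose (2.89, SE 0.35, adjusted p = 0.00042). None of these lists had a called fall, and the counts stand beside 6.47% of all genes called. Among the 5 neural stem markers tested, Sox2 alone passed in the same comparison (limma), falling by 0.63 (SE 0.18, adjusted p = 0.0473). The median of the 5 was 0.18, in the other direction. With both against control Sox2 again passed alone, falling by 0.98 (SE 0.23, adjusted p = 0.0335), and the median was -0.28. The part of Sox2 in the result was not tested.

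The 2 cell types were set against each other for each change. For STAT3C 0 of 33 members differed (limma, where 0.0256% of genes did), with 2 at an unadjusted p below 0.05, against 8.58%. For CEBPB 0 differed (where 1.49% of genes did), with 4 at an unadjusted p below 0.05, against 17.3%. Actn1, called with both vectors in NSC, changed by 0.23 in C17.2 (SE 0.32, adjusted p = 0.734), and the difference between the cell types was -0.82 (SE 0.57, adjusted p = 0.533). For Pdlim7 it was -0.53 (SE 0.31, adjusted p = 0.44), so neither change was shown to differ between NSC and C17.2. The joint fit held no slide term, and without one neither gene passed in NSC (differences 1.0 and 0.68). It therefore does not test the NSC rises that were called with slide in the fit.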

How the data were processed

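The deposited file of each array holds, per the file headers, a bead intensity per probe on a linear scale with values below 0, and a detection p-value. The authors' series matrix holds values read here as log2, with an unstated transform, used as an alternative only. Bead numbers, per the file headers, are other quantities. BeadStudio and lumi are named in the submitters' processing notes, without versions. Of 561 array pairs 0 held identical values.

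Probes were named through the platform annotation and RefSeq (1 symbol for 34885 of 45281 probes). Signals were normalised with neqc of limma 3.58.1 (R 4.3.3, offset 16) and kept at detection p below 0.05 on at least 4 arrays. Genes were fitted with lmFit and eBayes over 4 groups per cell type, with slide as a fixed term in NSC, or over 8 groups jointly without a slide term. Tests were two-sided, with Benjamini-Hochberg adjustment over all genes. A bound sets undetected arrays at the lowest detected signal or the probe's own value, whichever is higher. The fits were tested on simulated data.

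Members and lists were chosen with earlier results of these data known. Named members are those called between vectors, Srf, Acta2, Tagln, Cnn1, Actb and Actg1, the largest rise and fall against each control, and up to 6 per direction between cell types. Others, such as members with wide spread, were named after their values were seen. The results of 1 pathway list are not reported here. Alternatives tried were the background correction, the authors' values, the filter, the probe rule, the slide, leaving out arrays and, added after seeing the data, a block for the 4 arrays that lack Xist.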

Additional observations from a re-analysis of the deposited data

Results flagged for a closer look

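In groups of 4 or 5 arrays, 21 of 100 groups examined over 13 members held an array far from the others. The cut used flags about 5% by chance. The 13 members were those called, fixed by name or with the largest change in these same data, so that 5% is no fair reference for them. Of the 21, 17 were replicate 4 of an NSC group, the slide 6 arrays that lack Xist. Csrp1 passed the NSC detection filter only through those 4 arrays, so its flags there follow from the filter. On those arrays Csrp1 stood at 9.30 in control, 9.21 with STAT3C, 9.35 with CEBPB and 8.97 with both, while no other NSC array was above 4.85. Acta2 stood at 7.36 with STAT3C and 7.28 with CEBPB, Actn1 at 6.81 with STAT3C, and Actg2 at 4.50 with STAT3C, each below the other arrays of its group. Actb stood at 13.59 with STAT3C and 12.98 with CEBPB, Pdlim5 at 8.45 and 7.88, and Pdlim7 at 5.97 with STAT3C, also below. Cavin4 stood at 4.70 with CEBPB, not detected, where the other 3 arrays were at 6.23 to 6.42. Srf stood above its group at 9.10 with STAT3C and 9.17 with CEBPB, and Tpm1 at 10.2 with CEBPB.

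In C17.2, CEBPB replicate 3 stood apart for Tpm2, at 6.14, and for Tpm1, at 13.70 against 12.45 to 12.57. CEBPB replicate 4 was the highest of its group for Cavin4, at 6.37, and STAT3C+CEBPB replicate 1 the lowest for Acta2, at 11.29. The change of Cavin4 with both vectors differed between the cell types by -2.86 on the log2 scale, by a test of the difference itself without a slide term (limma, adjusted p = 0.0425).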

How the results depend on the processing

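Counts of members called moved as follows. With slide as a random block, CEBPB against control in C17.2 gave 2 members (Pdlim5 and Cavin4, against 1). With the slide as a fixed term among transduced arrays, both against STAT3C and CEBPB against STAT3C gave 0 each, where fewer arrays were fitted. In NSC, both against control gave 0 without a slide term and 1 without the 4 arrays that lack Xist, which leaves 1 array against 1 on slide 6, and both against STAT3C gave 1 with no detection filter (Actc1). Both against CEBPB in NSC gave 3 with the mean of all probes, 0 without a slide term and 12 without those 4 arrays, and non-additivity gave 4 without them. With those 4 arrays as a block of their own, chosen after seeing the data, both gave 4 against control, 2 against STAT3C and 10 against CEBPB. The difference between cell types with both vectors gave 0 with no background fit and 0 with no filter. The cause was not tested. The other planned settings, the authors' own values among them, left these counts within 1.5 times.

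Leaving out 1 array at a time gave 0 to 5 members for CEBPB against control in C17.2 (5 without CEBPB replicate 3, 0 without replicate 1), 1 to 2 for both, and 0 to 1 for CEBPB against STAT3C. In NSC it gave 0 to 1 for CEBPB, 2 to 3 for both against control, 0 to 1 for both against STAT3C, 1 to 8 for both against CEBPB (1 without CEBPB replicate 1, 8 without control replicate 5) and 0 to 2 for non-additivity. It gave 24 to 27 between the controls, and 0 to 2 and 0 to 1 for the cell-type differences with CEBPB and with both. Acta2 lost its call between CEBPB and both in 11 of 18 such fits, Myh9 in 10, Tpm1 and Pdlim5 in 5 each, and Actn1 in 0.

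Direction turned for some changes that were not called. Actb was -0.26 with both in C17.2 and 0.093 with CEBPB in NSC by the mean of all probes, and Acta2 with STAT3C in NSC was 0.31 without a slide term, 0.10 without the 4 arrays and 0.14 with them as a block. With 1 array left out, Actb ranged from -0.088 to 0.13 with STAT3C and from -0.042 to 0.24 with both in C17.2, and from -0.13 to 0.53 with both in NSC. Acta2 ranged from -0.50 to 0.19 with STAT3C and Tagln2 from -1.29 to 0.083 with both in NSC. No paired analysis was possible because the labels carry no replicate numbers. The number of arrays and, for dim members such as Pdlim7 in NSC, the signal over background limit the precision.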
